A study of Mus musculus with 6 samples.

Results

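The genes described here set the phosphorylation of the translation initiation factor eIF2 and its recycling. They are the 4 kinases of the eIF2α subunit (Eif2ak1, Eif2ak2, Eif2ak3 and Eif2ak4), the 2 subunits that target protein phosphatase 1 to eIF2α (Ppp1r15a and Ppp1r15b), eIF2α itself (Eif2s1), and the α and ε subunits of the exchange factor eIF2B (Eif2b1 and Eif2b5). They were picked by gene symbol, and all 9 were found among the 16081 genes listed. Lewis cells, a line from a mouse lung carcinoma, were profiled by RNA-seq after 24 hours with the vehicle DMSO (n = 3) or with SD70 (n = 3), an inhibitor of the histone demethylase KDM4C. No dose of SD70 for these samples was given in the sources used here, no genotype or transgene was labelled, and no sample was left untreated. The labels give the source as lung adenocarcinoma cells, although the RNA extraction text speaks of ground tissue. They do not say whether the 3 samples of a group came from separate cultures. The study states in general that its experiments were independently repeated 3 times or more, without naming these samples. The p-values therefore measure the spread between these samples, which may be technical.

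eIF2 carries the initiator tRNA to the ribosome and must have its GDP replaced by GTP by eIF2B before each new round. When eIF2α is phosphorylated on a conserved serine, eIF2 binds eIF2B tightly and blocks it, so that general translation slows while a few mRNAs with upstream start codons, such as that of the transcription factor ATF4, are translated better. This is the integrated stress response. Each kinase senses a different stress: HRI (Eif2ak1) lack of heme and mitochondrial or oxidative stress, PKR (Eif2ak2) double-stranded RNA, PERK (Eif2ak3) misfolded protein in the endoplasmic reticulum (ER), and GCN2 (Eif2ak4) uncharged tRNA. GADD34 (Ppp1r15a) and CReP (Ppp1r15b) end the response by bringing protein phosphatase 1 to eIF2α, the first as an inducible feedback subunit and the second as a constitutive one. Activation of the kinases and phosphorylation of eIF2α are events of protein, whereas the values below are mRNA levels.

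Under SD70 the mRNA of both phosphatase subunits rose, Ppp1r15a 6.68-fold and Ppp1r15b 1.92-fold, while among the 4 kinases only Eif2ak3 passed the test, and it fell 1.34-fold. Eif2s1 rose 1.14-fold and Eif2b1 rose 1.28-fold. The other 4 genes, Eif2ak1, Eif2ak2, Eif2ak4 and Eif2b5, did not pass. Passing means a p-value below 0.01 from the quasi-likelihood test of edgeR after Benjamini-Hochberg adjustment over all 11552 genes tested. In this comparison 49.9% of all genes tested passed, 25.8% higher and 24.2% lower with SD70, so the 5 of 9 that passed (4 higher, 1 lower) is close to the share over all genes. Of all genes tested, 5.9% passed with a change of at least 2-fold, as did 1 of the 9, Ppp1r15a. The median log2 fold change of the 9 was 0.09 against -0.00 over all genes tested.

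**Figure D1:**
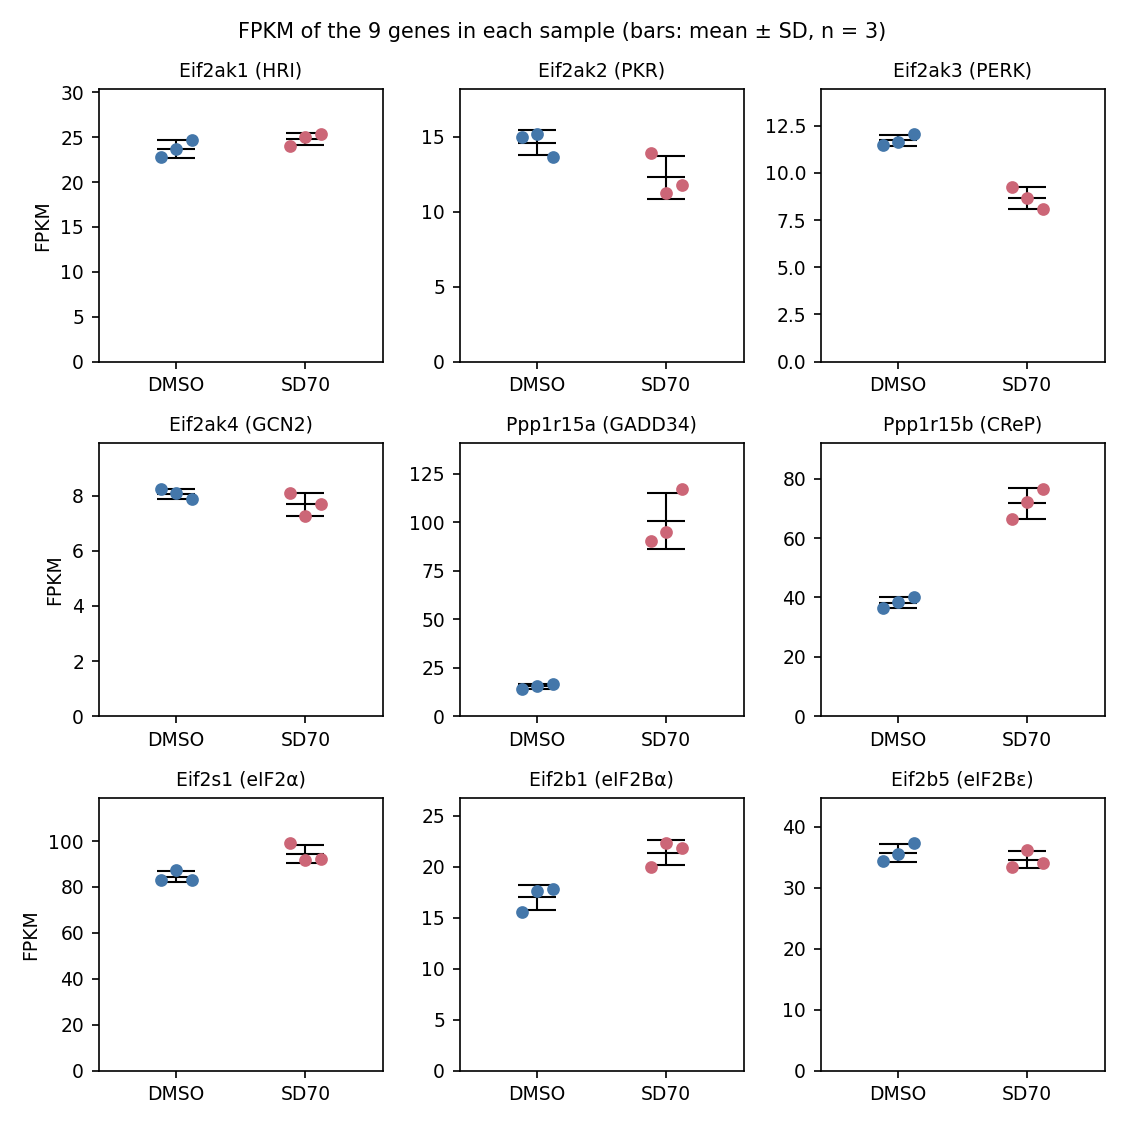
FPKM of each of the 9 genes (vertical axis, a separate scale starting at 0 in each panel) in the 3 DMSO samples (blue) and the 3 SD70 samples (red), in the order of replicates 1 to 3, with black bars for the mean ± SD. Ppp1r15a lies between 14.1 and 16.4 FPKM in DMSO and between 90.4 and 117 in SD70, while Eif2ak1, Eif2ak2, Eif2ak4 and Eif2b5 overlap between the groups.

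Ppp1r15a, the phosphatase subunit that rose most, and Eif2ak3, the kinase that fell, are shown with the bases upstream of the gene (RefSeq, GRCm38.p6), since Ppp1r15a alone among the genes matched holds a cyclic AMP response element and Eif2ak3 holds the most CCAAT boxes. Letters in capitals mark the motif.

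Ppp1r15a, chr7:45526269-45526518, minus strand, cyclic AMP response element in capitals: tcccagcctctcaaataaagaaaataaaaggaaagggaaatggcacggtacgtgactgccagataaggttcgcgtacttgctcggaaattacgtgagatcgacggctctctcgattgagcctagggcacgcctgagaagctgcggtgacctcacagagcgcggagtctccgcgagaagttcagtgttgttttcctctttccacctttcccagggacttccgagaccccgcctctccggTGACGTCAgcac
Eif2ak3, chr6:70844265-70844483, plus strand, CCAAT boxes of either strand in capitals: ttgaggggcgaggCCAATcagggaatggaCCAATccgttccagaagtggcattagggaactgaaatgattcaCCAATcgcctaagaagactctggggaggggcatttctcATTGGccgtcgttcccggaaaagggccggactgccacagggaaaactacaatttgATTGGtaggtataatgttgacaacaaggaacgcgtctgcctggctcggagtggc

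A promoter window of 250 bases before to 50 after the start was found for 8 of the 9 genes by symbol; Ppp1r15b was not matched. The start from which a window is counted was the first base of the annotated gene for Eif2ak1, Eif2ak2, Ppp1r15a, Eif2s1 and Eif2b1. It lay 31 bases inside the gene for Eif2ak3, 22 for Eif2b5, and 34 and 529 for the 2 windows of Eif2ak4. The stretch of Eif2ak3 printed above stops before the gene. In these windows 4 sets of letters were searched on both strands. The cyclic AMP response element TGACGTCA, a palindrome bound by CREB and ATF proteins, was found only in Ppp1r15a, at positions -12 to -5, and is present in 1.79% of the 32851 windows in the RefSeq table. CCAAT, the core of the site of the factor NF-Y, was found 6 times in the window of Eif2ak3 (5 of them printed above, the other within the gene) and once each in Eif2ak1 and Eif2b5. At least 1 CCAAT is present in 37.4% of all windows and 6 or more in 0.0791% of them. The interferon-stimulated response element GAAANNGAAA was found in Eif2ak2 at +19 to +28, in Ppp1r15a at -220 to -211 (not capitalised above) and in Eif2s1 at -212 to -203, and is present in 3.44% of all windows. TGATGNAA, a form of the composite site of C/EBP and ATF4, is present in 3.97% of all windows and in no window of these 8 genes. The site in Eif2ak2, a textbook interferon-induced gene, is shown with 8 bases on each side, the motif in capitals.

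Eif2ak2, chr17:78882537-78882562, minus strand: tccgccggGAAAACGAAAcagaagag

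A match of these letters is a description of the sequence and was not tested for binding.

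Eif2ak1, which encodes the heme-regulated kinase HRI, lies at chr5:143817792-143902717 on the plus strand of GRCm38.p6. Its counts were 991, 1034 and 1100 in DMSO replicates 1 to 3 and 1032, 1092 and 997 in SD70 replicates 1 to 3. Scaled to the mean effective library size, these gave normalised counts of 1008 ± 44.7 (SD, n = 3) and 1076 ± 25.8, and the ranges of the groups overlapped. The log2 fold change was 0.09 (SE 0.0581, edgeR adjusted p = 0.165), with a 95% interval from 0.983-fold to 1.16-fold. Exons of Aimp2 and Ankrd61 lie on the opposite strand within the locus. Aimp2 had 781 to 955 counts per sample, and whether counting used the strand was not given in the sources used here, so reads from the shared bases may be split between these genes.

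Eif2ak2 encodes PKR and lies at chr17:78850504-78882572 on the minus strand. It had 979, 1007 and 930 counts in DMSO and 931, 780 and 729 in SD70. SD70 replicate 1 lay inside the range of the DMSO samples and the other two SD70 samples below it. The normalised counts were 941 ± 44.5 and 840 ± 91.4 (SD, n = 3), with a log2 fold change of -0.16 (SE 0.0674) that did not pass the test (edgeR adjusted p = 0.0369, 95% interval 0.812-fold to 0.982-fold). This call turned on 1 sample: without SD70 replicate 1 the log2 fold change was -0.255 and the edgeR adjusted p was 0.00168, against 0.00168 to 0.228 over all alternatives tried for this gene.

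Eif2ak3 encodes PERK, the kinase of the ER membrane, and lies at chr6:70844484-70905241 on the plus strand. It had 825, 837 and 851 counts in DMSO and 641, 610 and 511 in SD70. The 3 SD70 samples were all below the 3 DMSO samples, in which the gene varied little. The normalised counts fell from 811 ± 6.31 to 606 ± 44.2 (SD, n = 3), a log2 fold change of -0.42 (SE 0.0658, edgeR adjusted p = 1.43e-06) with a 95% interval of 0.682-fold to 0.821-fold. It was the 1 kinase of the 4 whose groups were separate, a pattern shown by 64.4% of all genes tested. The exact two-sided permutation test gave p = 0.1, the smallest that 3 against 3 samples allow.

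Eif2ak4 encodes GCN2 and lies at chr2:118388583-118475234 on the plus strand. It had 696, 683 and 676 counts in DMSO and 673, 614 and 589 in SD70. After scaling, the groups overlapped, at 663 ± 15.0 and 647 ± 36.6 (SD, n = 3). The log2 fold change was -0.04 (SE 0.0663, edgeR adjusted p = 0.657), and its 95% interval of 0.888-fold to 1.07-fold leaves out a change of the size seen in Eif2ak3. The difference between the 2 kinases was not itself tested.

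Levels of different genes are compared here per length, as FPKM (fragments per kilobase of gene scaled to library size). In DMSO the order of the kinases was Eif2ak1 (23.7 ± 0.981 FPKM, SD, n = 3), Eif2ak2 (14.6 ± 0.843), Eif2ak3 (11.7 ± 0.283) and Eif2ak4 (8.07 ± 0.186), with no overlap between neighbours. In SD70 the order was the same, but Eif2ak3 (8.66 ± 0.580) and Eif2ak4 (7.69 ± 0.421) overlapped. The summed FPKM of the 4 kinases was 58.1 ± 0.551 in DMSO and 53.4 ± 1.68 in SD70, and the groups did not overlap. FPKM is scaled by library totals, without the further scaling (TMM) used in the edgeR fit. With library totals in place of TMM, the median log2 fold change over all genes tested was -0.04. How much this scaling adds to the small difference in the sum was not tested. Eif2ak3 made up 20.2% ± 0.424 of the kinase sum in DMSO and 16.2% ± 0.794 in SD70, while the share of Eif2ak1 was 40.8% ± 1.46 and 46.4% ± 2.55, both without overlap. The FPKM of Eif2ak1 itself, 24.8 ± 0.648 in SD70, overlapped between the groups, and a share also moves when other genes of the sum change. The shares of Eif2ak2 (25.1% and 23.0%) and Eif2ak4 (13.9% and 14.4%) overlapped between the groups. The exact permutation test gave p = 0.1 for the sum and for the shares of Eif2ak1 and Eif2ak3, again the smallest possible. These are shares of mRNA and say nothing of kinase activity.

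Over all 9 genes the order of FPKM levels in DMSO, from the highest, was Eif2s1, Ppp1r15b, Eif2b5, Eif2ak1, Eif2b1, Ppp1r15a, Eif2ak2, Eif2ak3 and Eif2ak4. Ppp1r15b overlapped with Eif2b5 (34.4 to 37.3 FPKM), and Ppp1r15a overlapped both with Eif2b1 (15.6 to 17.9) and with Eif2ak2 (13.6 to 15.2). In SD70 Ppp1r15a moved from place 6 to place 1, overlapping with Eif2s1 (91.8 to 98.97 FPKM), and apart from Eif2ak3 and Eif2ak4 the other neighbours were separate.

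Ppp1r15a encodes GADD34 and lies at chr7:45522917-45526268 on the minus strand. It had 512, 569 and 608 counts in DMSO and 3226, 3452 and 3841 in SD70. After scaling these became 499, 553 and 583 against 3274, 3428 and 4226, so SD70 replicate 3 was the highest, and the lowest SD70 sample was above the highest DMSO sample by far more than the spread within either group. The means were 545 ± 42.6 and 3642 ± 511 (SD, n = 3), a log2 fold change of 2.74 (SE 0.104, edgeR adjusted p = 2.18e-09) with a 95% interval of 5.69-fold to 7.84-fold. By log2 fold change it was number 30 in order of rise among the 11552 genes tested. Over the 14 alternative settings and left-out samples its log2 fold change ranged from 2.61 to 2.81. Tulp2, with exons on the opposite strand, had 0 to 3 counts per sample.

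Ppp1r15b encodes CReP and lies at chr1:133131166-133139800 on the plus strand. It had 3307, 3497 and 3715 counts in DMSO and 5950, 6583 and 6318 in SD70, and the lowest SD70 sample lay above the highest DMSO sample. The normalised counts rose from 3394 ± 170 to 6509 ± 457 (SD, n = 3), a log2 fold change of 0.94 (SE 0.0540, edgeR adjusted p = 1.08e-16). The 95% interval was 1.78-fold to 2.07-fold, so it just includes the 2-fold threshold that the estimate misses. The larger SE of Ppp1r15a goes with the wider spread of its SD70 samples.

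The order of the phosphatase subunits turned over between the groups. In DMSO Ppp1r15b stood at 38.3 ± 1.87 FPKM and Ppp1r15a at 15.4 ± 1.14 (SD, n = 3), whereas in SD70 Ppp1r15a stood at 101 ± 14.4 and Ppp1r15b at 71.7 ± 5.13. The ratio of Ppp1r15a to Ppp1r15b was 0.402 ± 0.0110 in DMSO and 1.40 ± 0.114 in SD70. Ppp1r15a made up 28.6% ± 0.563 of the summed FPKM of both in DMSO and 58.3% ± 1.93 in SD70. The sum was 53.7 ± 3.00 FPKM and 172 ± 19.1 FPKM, which set against the kinase sum gives a ratio of 0.924 ± 0.0453 in DMSO and 3.23 ± 0.417 in SD70. None of these quantities overlapped between the groups, and the exact permutation test gave its smallest value, p = 0.1, for each. In a bulk sample, a change in the share of cells that carry an mRNA and a change in the mRNA per cell cannot be told apart.

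**Figure D2:**
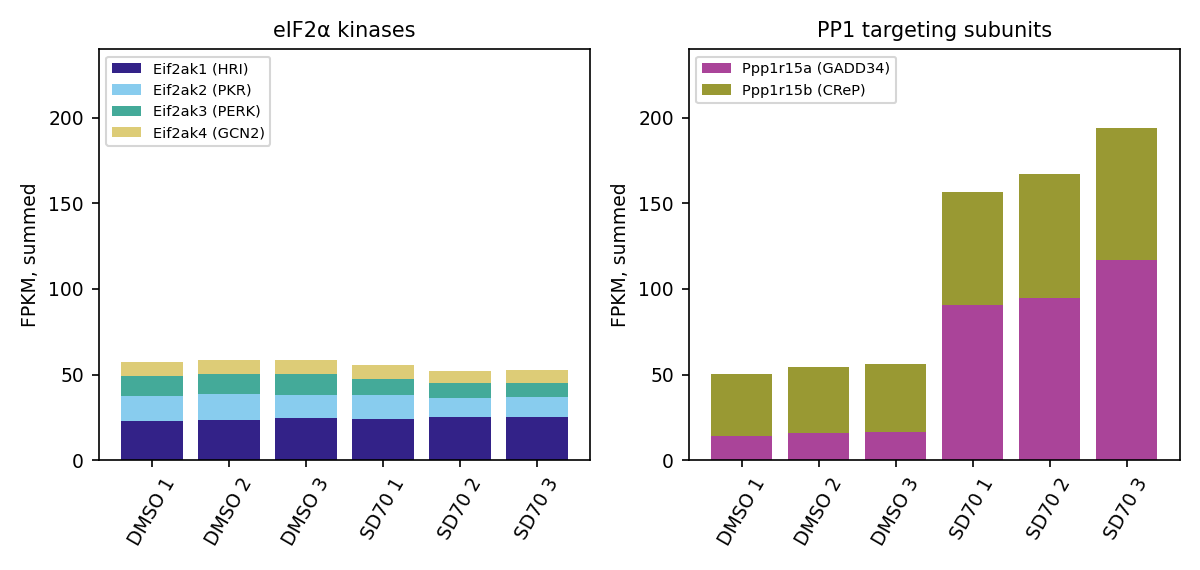
Summed FPKM (vertical axes, the same scale from 0) of the 4 eIF2α kinases (left) and the 2 protein phosphatase 1 targeting subunits (right) in each of the 6 samples, stacked by gene. The kinase sum stays near 58.1 in DMSO and 53.4 in SD70, while the phosphatase subunit sum goes from 53.7 to 172 on average and its larger component changes from Ppp1r15b to Ppp1r15a.

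Eif2s1 encodes eIF2α, the substrate of the 4 kinases, and lies at chr12:78862072-78887010 on the plus strand. It had 4148, 4374 and 4248 counts in DMSO and 4878, 4611 and 4173 in SD70. SD70 replicate 3 had the smallest library, and after scaling the 3 SD70 samples (4950, 4579 and 4591 normalised counts) were all above the DMSO samples (4042, 4248 and 4074). The means were 4121 ± 111 and 4707 ± 211 (SD, n = 3), a log2 fold change of 0.19 (SE 0.0498, edgeR adjusted p = 0.00126). It no longer passed, at a log2 fold change of 0.18, without DMSO replicate 3 (edgeR adjusted p = 0.0128), nor, at 0.16, with limma on log2(FPKM + 1) (adjusted p = 0.0145) or log2(FPKM + 0.1) (adjusted p = 0.0140). Its adjusted p ranged from 0.000598 to 0.0145 over the 14 alternatives, and the direction was the same in each of them. Eif2s1 was the most abundant of the 9 genes in DMSO at 84.5 ± 2.53 FPKM, and at 94.3 ± 4.05 FPKM in SD70 it overlapped with Ppp1r15a.

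Eif2b1 encodes the α subunit of eIF2B, which belongs to the regulatory part that senses phosphorylated eIF2α, and lies at chr5:124570214-124579131 on the minus strand. It had 481, 528 and 554 counts in DMSO and 605, 676 and 598 in SD70, and the groups were separate. The normalised counts rose from 504 ± 32.1 to 648 ± 30.0 (SD, n = 3), a log2 fold change of 0.36 (SE 0.0706, edgeR adjusted p = 4.35e-05).

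Eif2b5 encodes the ε subunit, which holds the catalytic site for nucleotide exchange, and lies at chr16:20498795-20509325 on the plus strand. It had 1373, 1427 and 1527 counts in DMSO and 1319, 1455 and 1236 in SD70, and the groups overlapped. The normalised counts were 1396 ± 63.8 and 1381 ± 56.3 (SD, n = 3). The log2 fold change was -0.02 (SE 0.0561, edgeR adjusted p = 0.828, 95% interval 0.914-fold to 1.07-fold), so a change of the size of that in Eif2b1 lies outside the interval, although the difference between the subunits was not tested.

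**Figure D3:**
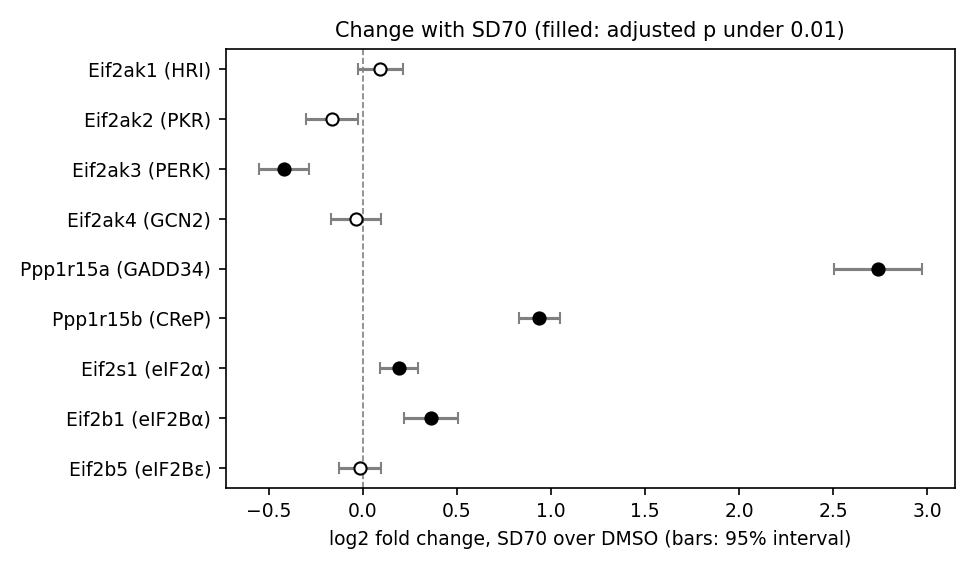
Log2 fold change of SD70 over DMSO (horizontal axis) for each of the 9 genes, with bars for the 95% interval from the edgeR fit over 3 against 3 samples. Filled points, from Ppp1r15a at 2.74 to Eif2ak3 at -0.42, had an adjusted p below 0.01, and open points did not.

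The remaining subunits place these genes within their complexes. Of the 6 other eIF2 and eIF2B subunit genes, 5 were tested and 2 passed, both higher, where 49.9% of all genes tested passed. Eif2s2, the β subunit of eIF2, rose from 5817 ± 273 to 9475 ± 633 normalised counts (log2 fold change 0.70, SE 0.0525, edgeR adjusted p = 1.02e-13). Eif2b3, the γ subunit of eIF2B, rose from 717 ± 26.7 to 1165 ± 35.3 (log2 fold change 0.70, SE 0.0598, edgeR adjusted p = 3.30e-12). Eif2s3x, Eif2b2 and Eif2b4 had log2 fold changes of 0.08, 0.05 and -0.05 and did not pass. Eif2s3y, the near-identical Y-linked copy of Eif2s3x, had 0 to 2 counts per sample and was not tested.

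Within each complex the change was thus uneven. On the FPKM scale the eIF2 subunits stood in DMSO at 84.5 (Eif2s1), 152 (Eif2s2) and 160 (Eif2s3x), and in SD70 at 94.3, 242 and 165. For eIF2B, Eif2b1 stood at 17.0 in DMSO and 21.4 in SD70, Eif2b2 at 31.6 and 32.1, Eif2b3 at 30.5 and 47.9, Eif2b4 at 14.6 and 13.8, and Eif2b5 at 35.8 and 34.6. In DMSO Eif2b3 (29.5 to 31.6 FPKM) overlapped with Eif2b2 (30.4 to 32.2) and lay below Eif2b5, and in SD70 its lowest sample lay above every sample of the 4 other eIF2B subunits.

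Among 8 partners of the eIF2 cycle 3 passed, all higher, where 49.9% of all genes tested passed. Eif5, the GTPase-activating protein of eIF2, had a log2 fold change of 0.64 (SE 0.0487), Denr, which acts in ribosome recycling and reinitiation, 0.47 (SE 0.0531), and Bzw2, an eIF5-mimic protein, 0.36 (SE 0.0496). The others, Bzw1, Eif2d, Mcts1, Cdc123 and Eif2a, ranged from -0.10 to 0.10 and did not pass. The median over the 8 was 0.04.

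Of 13 direct partners of the kinases and phosphatases 7 passed, 4 higher and 3 lower, and none reached 2-fold. The share passing was 53.8%, against 49.9% of all genes tested. For HRI, Dele1 and Oma1, which relay mitochondrial stress to it, had log2 fold changes of 0.31 and 0.33, and both passed. Oma1 no longer passed without DMSO replicate 2 (log2 fold change 0.26, edgeR adjusted p = 0.0309) or without SD70 replicate 1 (0.27, edgeR adjusted p = 0.0224), nor Dele1 without SD70 replicate 3 (0.23, edgeR adjusted p = 0.0106). For PKR, the activator Prkra fell by 0.36 on the log2 scale and Prkrip1, a PKR-interacting protein, rose by 0.46, whereas Tarbp2 was at -0.06 and did not pass. For GCN2, its co-activator Gcn1 fell by 0.26 on the log2 scale, and Impact, which competes for Gcn1, was at -0.05 and did not pass. For PERK, the inhibitory cochaperone Dnajc3 was at -0.10 and did not pass, and of the adaptors Nck1 and Nck2 the second fell by 0.63 on the log2 scale while the first was at 0.03 and did not pass. For the phosphatase, the catalytic subunit gene Ppp1cb rose by 0.20, while Ppp1ca (-0.10) and Ppp1cc (0.11) did not pass. The median over the 13 was -0.05.

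Targets of the response moved in 1 direction. Of 24 genes of the ATF4 branch, all downstream of eIF2α phosphorylation in textbook accounts, 22 were listed and tested and all 22 passed higher, 18 of them at least 2-fold, with a median log2 fold change of 1.43. Of all 11552 genes tested, 49.9% passed and 380 passed at least 2-fold higher. The list was drawn up with earlier results of these samples known, so its direction is no independent evidence. Chac1, a glutathione-degrading enzyme, rose from 167 ± 28.9 to 2462 ± 129 normalised counts (log2 fold change 3.88, SE 0.0805, edgeR adjusted p = 1.62e-26). Atf3, a stress-induced transcription factor, rose from 285 ± 11.9 to 3802 ± 365 (3.74, SE 0.0712, edgeR adjusted p = 3.72e-29). Trib3 and Sesn2, both induced by ATF4, rose by 2.96 and 2.66 on the log2 scale. Atf4 itself had 7002, 8065 and 9210 counts in DMSO and 30292, 32313 and 28241 in SD70, a log2 fold change of 2.00 (SE 0.0712). Ppp1r15a, at 2.74, is a known target of this branch and was not counted in the list.

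Of 17 genes of ER folding and of the IRE1 and ATF6 branches, which respond to the same stress as PERK, 10 passed, 7 higher and 3 lower, with a median of 0.11. The share passing was 58.8%, against 49.9% of all genes tested. Herpud1, of ER-associated degradation and also known as a target of ATF4, rose by 2.45 on the log2 scale, and Ern1, which encodes IRE1α, by 1.44. Atf6 and the cochaperone gene Dnajb9 rose by 0.73 and 0.72. Also passing higher were Xbp1 at 0.63, the chaperone gene Hspa5 at 0.35 and Dnajb11 at 0.26. The 3 that passed lower were Sdf2l1, an ER cochaperone component, at -0.55, Edem1, of ER-associated degradation, at -0.26, and the chaperone gene Hsp90b1 at -0.16. Hsp90b1 (edgeR adjusted p = 0.00793) no longer passed, at -0.11 to -0.17, when any 1 sample other than SD70 replicate 1 was left out (edgeR adjusted p = 0.0171 to 0.0655). The other branches' sensors Ern1 and Atf6 thus rose while Eif2ak3 fell.

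Of 22 interferon-induced and double-stranded RNA response genes, the setting in which PKR is best known, 20 were listed and 15 tested. Of these 5 passed at least 2-fold higher, against 380 of all 11552 genes tested. In all 9 passed (60%, against 49.9% of all genes tested), 6 higher and 3 lower, and the list median was 0.26. The largest rises were in genes with few counts: Rsad2, an antiviral enzyme, had 1, 1 and 3 counts in DMSO and 27, 30 and 36 in SD70. Ifit1, which binds viral RNA, had 4, 0 and 1 counts in DMSO and 22, 18 and 22 in SD70. Isg15, a ubiquitin-like protein, had 10, 19 and 18 counts in DMSO against 54, 53 and 54, and Oasl2, of the 2'-5' oligoadenylate synthetase family, had 10, 8 and 12 against 28, 25 and 29. All 4 passed. The fifth gene at least 2-fold higher, Adar, an RNA-editing enzyme that acts on double-stranded RNA, was well counted, rising from 632 ± 20.8 to 1368 ± 91.3 normalised counts (log2 fold change 1.11, SE 0.0621). The 3 that passed lower were Oas3, of the oligoadenylate synthetases, at -0.86, Stat2, a transcription factor of interferon signalling, at -0.37, and Ddx58, the RNA sensor RIG-I, at -0.20. The call of Ddx58 was borderline (edgeR adjusted p = 0.00960) and was lost with DESeq2 (adjusted p = 0.0230), with limma on log2(FPKM + 1) (0.0146) or log2(FPKM + 0.1) (0.0142), and without DMSO replicate 1 (0.0760), DMSO replicate 2 (0.0163), SD70 replicate 2 (0.0224) or SD70 replicate 3 (0.0431).

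Against this list, Eif2ak2, itself known as interferon-induced, had a log2 fold change of -0.16 that did not pass.

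Of 12 genes of heme synthesis and breakdown, the pathway whose product HRI senses, 9 passed, 4 higher and 5 lower, with a median of -0.08. The share passing was 75%, against 49.9% of all genes tested. Uros and Cpox, of the middle and late steps of synthesis, rose by 0.77 and 0.74 on the log2 scale. Alas1, the rate-limiting enzyme, fell by 0.60 on that scale and Urod fell by 0.47. Uros had 66, 88 and 81 counts in DMSO and 112, 137 and 126 in SD70. Alad (0.21) lost its call with library totals in place of TMM and with both limma fits. Alad also lost it without DMSO replicate 1 or 2 or SD70 replicate 2 or 3. Blvrb (-0.32) did not pass without DMSO replicate 3 or SD70 replicate 1 or 3, nor did Ppox (-0.27) without DMSO replicate 1.

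**Figure D4:**
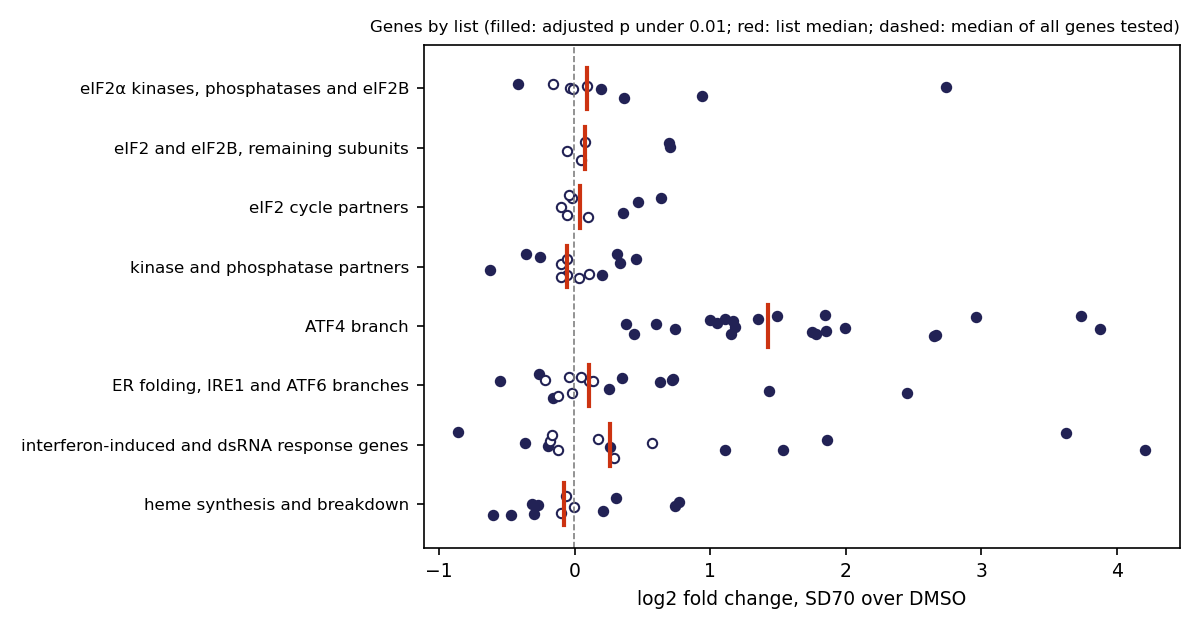
Log2 fold change of SD70 over DMSO (horizontal axis) of each gene tested, by list, with the vertical position within a list random. Filled points had an adjusted p below 0.01, red bars are list medians and the dashed line is the median of all genes tested. The ATF4 branch lies wholly to the right, with a median of 1.43, while the medians of the other lists lie between -0.08 and 0.26, and the highest points among the interferon-induced genes rest on few counts.

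The genes most like Ppp1r15a over the 6 samples, by Pearson correlation of log2 library-scaled counts among 9622 genes with a mean normalised count of at least 100, were Slc7a1, Gpat3, Id3, Sod2 and Eif1ad. They encode a cationic amino acid transporter, a glycerol-phosphate acyltransferase, an inhibitor of DNA binding, the mitochondrial superoxide dismutase and a protein with an eIF1A-like domain. Their r ran from 0.9997 to 0.9998, and 493 genes had r above 0.99 over the same 6 samples. Their log2 fold changes were 1.90, 2.14, 1.99, 1.18 and 1.46. With the groups far apart, such an r mostly reflects the group difference, and it does not show that genes vary together within a group.

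The number of ATG triplets before the annotated start codon differs among the mRNAs of these genes, a feature that bears on translation when eIF2α is phosphorylated. In the GENCODE M21 transcript with the longest coding sequence, the leader of Ppp1r15a had 7 in 764 bases, Ppp1r15b 3 in 604, Eif2ak3 3 in 211, Eif2s1 2 in 363 and Eif2ak2 1 in 190. Eif2ak1, Eif2ak4, Eif2b1 and Eif2b5 had 0, in leaders of 91 to 118 bases. At least 1 is found in 50.5% of 21553 coding genes and at least 7 in 6.63%. Longer leaders hold more by their length, other transcripts of a gene can differ, and reading frames were not examined.

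The libraries held 15276744 to 17060424 counts, and 14062 to 14105 genes were above 0. Kdm4c, whose product SD70 inhibits, had 753 ± 34.6 and 765 ± 34.2 normalised counts (log2 fold change 0.02, edgeR adjusted p = 0.769), which checks no label because the compound acts on the protein, and the sign of this value changed in 5 of 14 alternatives. Among cell type markers, the epithelial genes Epcam, Cdh1 and Krt19 and the alveolar type 2 gene Sftpc had 0 or 1 count in every sample. Other members of these lists were counted: in DMSO Krt8 stood at 3916 normalised counts, Krt18 at 87.1, Abca3 at 776 and Napsa at 75.8. The summed epithelial list was 3916 to 4106 in DMSO and 2573 to 2896 in SD70, with both genes tested passing lower. The summed fibroblast list, mostly Col3a1, was 15943 to 16148 and 13768 to 14891, with 4 of 5 genes passing (1 higher, 3 lower). Its members moved in opposite directions: Pdgfrb rose by 1.54 on the log2 scale, whereas Pdgfra fell by 1.00 and Col3a1 fell by 0.19. Of the 3 listed of 5 alveolar type 2 markers, 2 were tested and 1, Abca3, passed lower (log2 fold change -0.34). The alveolar sums, mostly Abca3, were 832 to 866 and 640 to 713. The immune list summed to 26.3 to 42.2 and 30.8 to 46.7, with Ptprc at 0 to 2 counts, and the endothelial list to 56.5 to 66.2 and 62.6 to 78.1, and none of the 2 immune genes and 1 endothelial gene tested passed. The lower sums of the epithelial, fibroblast and alveolar lists move with the treatment, as do these opposite changes within the fibroblast list, and their part in the changes above was not tested.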

How the data were processed

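RNA-seq was analysed in 6 samples of Lewis cells, 3 with DMSO and 3 with SD70 for 24 hours, grouped by their titles. Per the study's methods, clean BGISEQ-500 reads were aligned with HISAT to GRCm38.p6, while the submitters' processing notes list mm8 and StringTie 1.3.3b with no role; coordinates here are RefSeq's on GRCm38.p6, joined by gene ID. The authors deposited, per gene and sample, an expected count (8.84% to 9.28% not whole, not normalised) and a value with no named unit, which count, transcript length and library total show to be FPKM. The tool that counted was not given in the sources used here. Columns of no sample numbered 0.

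Expected counts were rounded, filtered by filterByExpr, scaled by TMM (0.984 to 1.02) and fitted in edgeR 4.0.16 (R 4.3.3) with its robust quasi-likelihood functions (glmQLFit, glmQLFTest). The SE was derived from the F statistic. The exact permutation tests were two-sided. Totals of 15276744 to 17060424 counts and 3 samples per group set the precision. No 2 samples of a group were alike within sampling noise (chi-square per gene 2.08 to 4.78). In data simulated for this comparison (11470 genes), 55 of 67 genes changed by 0.5 on the log2 scale, 60 of 67 by 1, 63 of 66 by 2 and 2 of 11352 unchanged genes passed. The simulation changed a far smaller share of genes than the 49.9% that passed in the data, so its rates may not carry over. The labels number the replicates alike in both groups, and deviations of same-numbered samples correlated at 0.176, 0.254 and 0.157 over 9623 genes, so a fit with replicate number as a block was among the alternatives, with other normalisations, filters, thresholds, DESeq2 1.42.0, limma 3.58.1 on log2(FPKM + 1 or 0.1) and each sample left out. Named were all 9 genes, Kdm4c, up to 4 passing genes per list by size of change and the 5 most like Ppp1r15a; Atf4 and the other list genes given with values were added to complete a list or after their values were seen. The genes and lists were chosen with earlier results of these data known. Gcn1 is listed under an older symbol and was matched by gene ID.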

Additional observations from a re-analysis of the deposited data

How the results depend on the processing

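Of 557 values of the 40 named genes under alternatives, 543 kept their direction and side of the threshold, 5 lost and 1 gained the call, and 8 changed sign, all of genes that did not pass. With 1 sample left out, Eif2ak4 ranged from -0.077 to 0.0073 (above 0 without SD70 replicate 2), Eif2b5 from -0.048 to 0.013 (above 0 without DMSO replicate 3 and, at 0.0083, without SD70 replicate 1) and Kdm4c from -0.024 to 0.055. Kdm4c was at -0.015 with library totals in place of TMM, -0.0071 and -0.0076 with limma on log2(FPKM + 1) and log2(FPKM + 0.1), -0.024 without DMSO replicate 2 and -0.011 without SD70 replicate 1 (the cause was not tested). Genes passing at 2-fold or more numbered 681, against 283 with limma on log2(FPKM + 1) and 565 with limma on log2(FPKM + 0.1). The larger pseudocount shrinks the changes of low genes more, and both limma fits also differ from the main fit in test and unit. In the main fit 2976 genes passed higher and 2791 lower, whereas with library totals in place of TMM 2630 passed higher and 3165 lower. With limma these were 2480 and 2771 on log2(FPKM + 1), and 2497 and 2788 on log2(FPKM + 0.1), so the larger direction depends on the scaling or test. With the replicate block 5913 genes passed, 692 of them at 2-fold or more, and 5 of the 9 genes passed as before, so the pairing changed none of their calls. With 1 sample left out, 621 to 721 genes passed at 2-fold or more and 5102 to 5346 passed in all, as did 4 to 6 of the 9 genes, 2 of the remaining subunits, 3 of the cycle partners, 6 to 7 of the kinase and phosphatase partners, 22 of the ATF4 branch, 9 to 10 of the ER genes, 8 to 9 of the interferon-induced genes and 7 to 8 of the heme genes. Of the interferon-induced genes, 7 passed with limma on log2(FPKM + 1). With at least 10 counts required in every sample 6 of them passed, and Rsad2, Ifit1 and Oasl2 were not tested. At an adjusted p below 0.05, 6 of the 9 genes passed. Each of the 9 genes had 481 counts or more in every sample, whereas the few counts of Rsad2 and Ifit1 limit their values.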
